A study of Mus musculus with 108 samples.

Results

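The genes described here are 8 of the 26089 mouse genes with a curated RefSeq transcript on chromosomes 1 to 19 and X, and they were taken by name: the INK4 inhibitors Cdkn2a, Cdkn2b, Cdkn2c and Cdkn2d, the Cip/Kip inhibitors Cdkn1a and Cdkn1b, and Trp53 and Mdm2. Their chromatin was read from maps that give each bin of 200 bp in the liver genome 1 of 8 chromatin states. All livers came from inbred C57BL/6 female mice and were fixed in formalin and embedded in paraffin. The SD 3m group held 8 mice of 3 months of age on standard diet (SD). The SD 12m group held 8 mice of 12 months on the same diet. The CR 12m group held 9 mice of 12 months that had been under caloric restriction (CR), with 30% fewer calories, since 3 months of age. For each mark the reads of a group were merged before the states were called, so each group has a single map, no test across mice was possible, and no difference below can be set against the spread between mice. Both 12-month groups are set against 1 and the same map of 3-month livers.

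Cyclin-dependent kinases drive a cell through its division cycle, and the inhibitors stop them. INK4 proteins bind CDK4 and CDK6, which keeps the retinoblastoma proteins active, while Cip/Kip proteins bind the cyclin complexes of CDK2 as well. Cdkn2a makes 2 unrelated proteins from 2 starts, p16INK4a and p19ARF, and ARF blocks MDM2, the ubiquitin ligase that removes p53. The locus is a classic target of Polycomb, the system that deposits H3K27me3, and its RNA rises with age in many tissues.

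The states are combinations of 4 histone marks. State 1 (active TSS) carries H3K4me3 and H3K27ac, and state 2 (flanking TSS) carries these and H3K4me1. State 3 (active enhancer) carries H3K27ac and H3K4me1, state 4 a weaker H3K27ac, and state 5 (poised enhancer) H3K4me1 without H3K27ac. State 6 carries H3K27me3 and marks Polycomb repression, state 7 has little H3K4me3 and H3K27me3, and state 8 has none of the marks. A state is a label and not a level: it does not say how much mark or RNA was there. Over the genome, state 2 covered 1.13%, 0.425% and 0.361% of the bins (values for SD 3m, SD 12m and CR 12m, the order used wherever 3 values are given), and state 6 covered 9.48%, 14.4% and 10.3%. State 7 covered 1.89%, 11.4% and 4.15%. The merged H3K4me3 libraries numbered 7, 8 and 5 in these groups and those of H3K27me3 numbered 7, 8 and 6. Those of H3K27ac numbered 8, 7 and 9 and those of H3K4me1 numbered 8, 6 and 9. The part of these numbers and of read depth, which is unknown, in the results was not tested. As to the tissue, the transcription start site (TSS) bin of 6 of 6 hepatocyte markers lay in states 1 to 5 in every group, and that of 0 of 3 markers of other organs did. Among 6 markers of Kupffer cells and leukocytes, 3, 2 and 1 lay in states 1 to 5. The counts were 3, 2 and 3 of 3 endothelial markers, 2, 2 and 1 of 3 stellate cell markers and 1, 2 and 2 of 3 cholangiocyte markers, and the part of cell composition was not tested. In whole liver, a mark in more cells and more of it per cell cannot be told apart.

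The genes have 11 distinct starts among 13 curated transcripts. The 250 bases upstream of 5 of them are shown because these starts carry the contrasts described below, with each CpG in capitals (RefSeq sequence, GRCm38.p6, 5′ to 3′ in the direction of transcription).
Cdkn2a, Arf start, chr4:89294620-89294869, minus strand: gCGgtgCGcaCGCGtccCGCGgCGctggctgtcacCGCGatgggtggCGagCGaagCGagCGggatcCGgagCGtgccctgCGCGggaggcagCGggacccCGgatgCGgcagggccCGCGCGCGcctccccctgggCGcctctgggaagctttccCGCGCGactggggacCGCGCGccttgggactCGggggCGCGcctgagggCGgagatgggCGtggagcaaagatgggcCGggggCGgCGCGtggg
Cdkn2a, Ink4a start, chr4:89282193-89282442, minus strand: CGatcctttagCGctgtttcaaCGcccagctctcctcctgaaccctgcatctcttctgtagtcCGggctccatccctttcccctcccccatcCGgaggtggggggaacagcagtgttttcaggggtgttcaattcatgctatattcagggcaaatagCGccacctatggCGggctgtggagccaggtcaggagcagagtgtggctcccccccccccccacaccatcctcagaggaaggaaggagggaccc
Cdkn2b, chr4:89311033-89311282, minus strand: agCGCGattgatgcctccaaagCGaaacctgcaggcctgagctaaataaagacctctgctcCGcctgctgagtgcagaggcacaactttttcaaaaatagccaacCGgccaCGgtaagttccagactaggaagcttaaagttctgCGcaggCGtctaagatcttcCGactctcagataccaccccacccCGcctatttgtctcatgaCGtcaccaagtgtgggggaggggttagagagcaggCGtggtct
Cdkn1a, first start, chr17:29090729-29090978, plus strand: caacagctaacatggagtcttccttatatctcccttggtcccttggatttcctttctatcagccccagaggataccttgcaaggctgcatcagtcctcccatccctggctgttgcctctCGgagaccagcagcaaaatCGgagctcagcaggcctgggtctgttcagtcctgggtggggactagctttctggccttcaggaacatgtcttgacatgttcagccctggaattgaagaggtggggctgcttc
Cdkn1a, second start, chr17:29093519-29093768, plus strand: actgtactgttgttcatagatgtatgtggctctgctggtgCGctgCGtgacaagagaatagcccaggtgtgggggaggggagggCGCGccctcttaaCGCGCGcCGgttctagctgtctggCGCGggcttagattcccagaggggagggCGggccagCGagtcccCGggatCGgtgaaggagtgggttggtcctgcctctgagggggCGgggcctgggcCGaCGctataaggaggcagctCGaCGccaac
The Arf start of Cdkn2a is preceded by 40 CpG in 250 bases, the Ink4a start of the same gene by 7 and Cdkn2b by 12. The first Cdkn1a start has 2 and its second has 19. Upstream of the other genes the CpG numbered 29 for the first Cdkn2c start, 16 for Cdkn2d, 28 for Cdkn1b, 9 for Trp53 and 29 for Mdm2. The median over 32585 RefSeq promoters of this length was 6, and 18.1% of them had 20 or more.

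At the TSS bin, 6 of the 8 genes were in the same state in all 3 groups, against 55.4% of all genes. The TSS bins of Cdkn2b, Cdkn2c, Cdkn2d, Cdkn1b and Mdm2 were in state 1 in SD 3m, SD 12m and CR 12m alike, and that of Cdkn1a was in state 3 in all of them. Trp53 was in state 2 in SD 3m and in state 1 in both 12-month groups. Cdkn2a, read at the Arf start, was in state 7 in SD 3m and in state 6 in SD 12m and CR 12m. Thus 2 genes differed between SD 12m and SD 3m (32.6% of all genes did), the same 2 between CR 12m and SD 3m (34.7%), and 0 between SD 12m and CR 12m (26.7%). For 8 genes, the counts against SD 3m stand near the background. With states 1 and 2 merged and states 3 to 5 merged, 1 gene, Cdkn2a, differed in each comparison with SD 3m (23.3% and 25.3% of all genes), and 0 differed between the 12-month groups (19.8%). The TSS bin was in state 1 or 2 in every group for 6 of the 8 genes, against 28.2% of all genes.

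**Figure D1:**
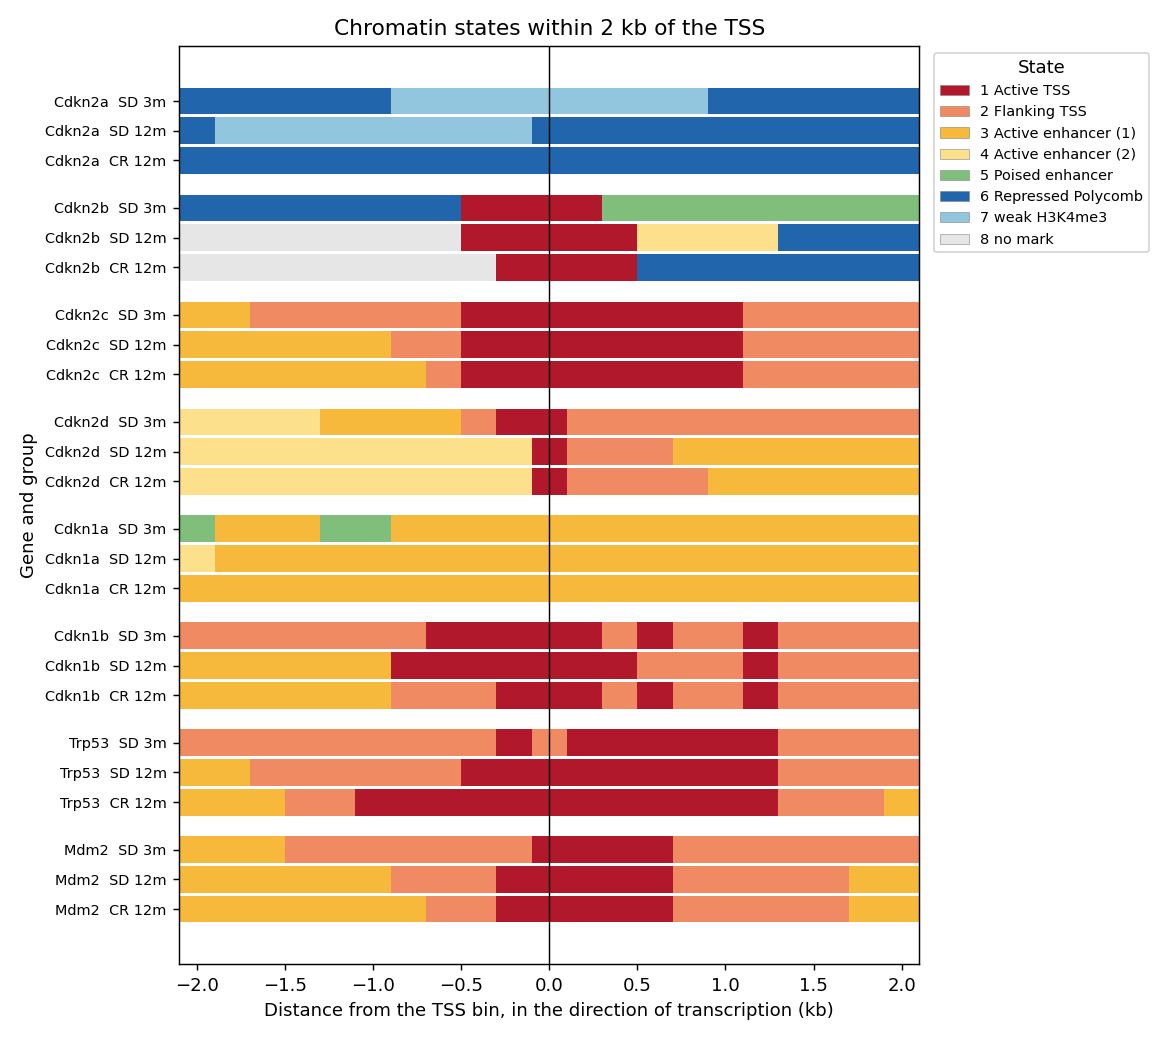
Chromatin state of each of 21 bins of 200 bp around the first TSS (horizontal axis, distance in kb in the direction of transcription) for 8 genes in SD 3m, SD 12m and CR 12m (rows). Cdkn2a is in states 6 and 7 throughout, Cdkn1a in enhancer states, and the other genes have state 1 at or beside the TSS, with fewer state 2 bins in the 12-month groups except at Cdkn2b, which has none.

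Cdkn2a held no bin of states 1 to 5 in its body or within 2 kb of either start in any group. The gene lies on chromosome 4 from 89274473 to 89294619 on the minus strand (mm10). Of its 102 body bins, 97 were in state 6 and 5 in state 7 at 3 months, and all 102 were in state 6 at 12 months on either diet. A body entirely in state 6 was found for 5.41%, 7.48% and 5.76% of all genes in the same order. The Ink4a start, 12427 bp downstream of the Arf start, lay in state 6 in every group, as did all 21 bins around it. The Arf start, the one with 40 CpG, differed. In SD 3m it sat in the middle of 9 bins (1.8 kb) of state 7, from 89293801 to 89295600. In SD 12m a stretch of equal length lay farther upstream, from 89294801 to 89296600, so that the TSS bin itself was in state 6. In CR 12m no bin there was in state 7 and all 21 were in state 6. A TSS bin in state 7 in SD 3m and in state 6 in both 12-month groups was found for 19 genes (0.0728% of all genes), a pattern taken from Cdkn2a itself. Few genes were in state 7 at the TSS in SD 3m (428, 1.64%), and of these 6.78% were in state 6 in SD 12m and 9.58% in CR 12m. A lncRNA gene, Gm12610, begins 561 bp upstream of the Arf start on the opposite strand, and the state 7 bins of SD 3m and of SD 12m overlap its start.

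Around Cdkn2a, state 6 ran in longer stretches at 12 months. In SD 3m a stretch of 43.2 kb covered the Ink4a start and ended short of the Arf start, and another of 13.4 kb followed upstream of the state 7 bins. In SD 12m the stretch over both starts measured 61.2 kb. In CR 12m a single stretch of 78.2 kb ran from 89232401 to 89310600, through Cdkn2a and the body of Cdkn2b. With states 6 and 7 read together, the stretch over the Arf start measured 58.4 kb, 76.2 kb and 78.2 kb, so the 12-month groups were close. Over the 684 bins of both genes and 50 kb on each side, state 6 took 360 bins (52.6%) at 3 months, 399 (58.3%) for SD 12m and 439 (64.2%) for CR 12m. In the flank downstream of Cdkn2a state 6 took 136, 204 and 210 of 250 bins, and in the upstream flank, which holds Cdkn2b, it took 92, 66 and 79. The order of the groups depends on the width read: state 6 held 45.6%, 54% and 57.8% of the bins within 50 kb on each side, but 91.5%, 83% and 89.5% within 20 kb and 30.7%, 48.8% and 35% within 100 kb.

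**Figure D2:**
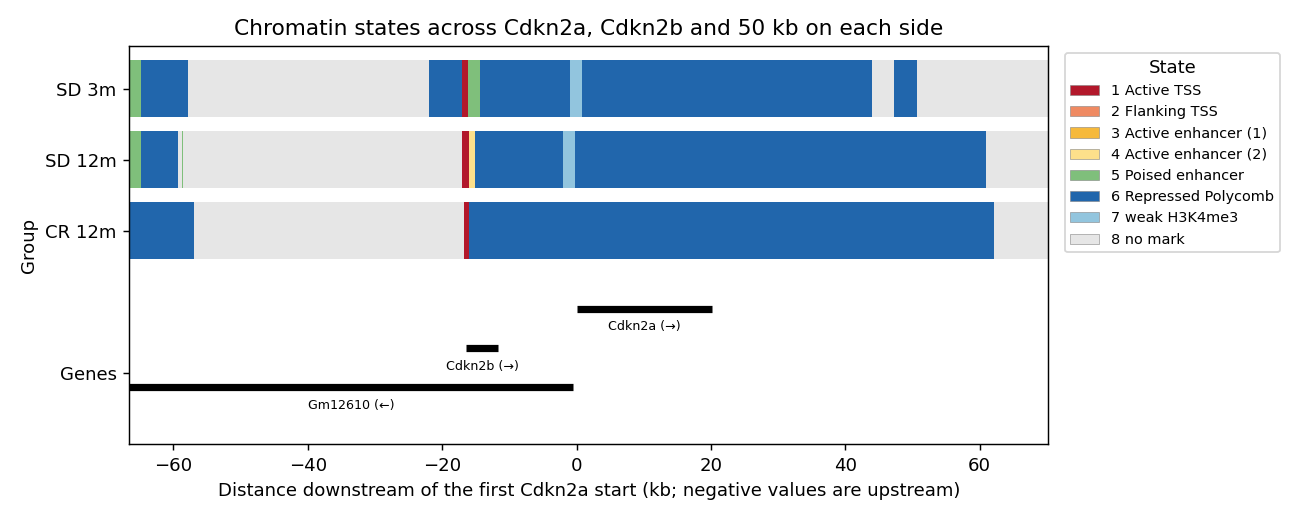
Chromatin states across Cdkn2a, Cdkn2b and 50 kb on each side in the 3 groups, by distance from the first Cdkn2a start (horizontal axis, kb, downstream to the right), with gene bodies drawn below and arrows for the direction of transcription. State 6 stretches over and beside Cdkn2a measure 43.2 kb and 13.4 kb in SD 3m. They measure 61.2 kb and 13.2 kb in SD 12m and 78.2 kb in CR 12m. An island of state 1 lies at the Cdkn2b start in every group.

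Cdkn2b, which encodes p15INK4b and starts 16413 bp upstream of the Arf start, differed from its neighbor by a small island of state 1. The island measured 0.8 kb in SD 3m, 1.0 kb in SD 12m and 0.8 kb in CR 12m, and no bin around it was in state 2. It bordered on state 6, directly or after a short gap. A TSS bin in state 1 with state 6 within 2 kb in all 3 groups was found for 39 genes (0.149%), a pattern taken from Cdkn2b itself. What lay next to the island differed between the groups. Downstream, inside the gene, 9 bins were in state 5 in SD 3m, 4 bins were in state 4 in SD 12m, and state 6 began at once in CR 12m. Upstream, 25 bins (5.0 kb) of state 6 in SD 3m were followed by state 8, whereas state 8 began at the edge of the island in SD 12m and CR 12m. State 6 thus held 14, 18 and 22 of the 25 body bins. Within 2 kb of the TSS, 17 of 21 bins differed between SD 12m and SD 3m and 18 between CR 12m and SD 3m, the greatest numbers among the 8 genes, while 5 differed between SD 12m and CR 12m. Of all genes, 10.2% differed in all 21 bins between SD 12m and SD 3m and 8.92% between CR 12m and SD 3m. In the first comparison 1.2%, 1.1% and 0.87% of all genes differed in 18, 19 and 20 bins. In the second 1.28% and 0.943% differed in 19 and 20 bins.

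The other INK4 genes carried broad active promoters that were narrower at 12 months. Cdkn2c, which encodes p18INK4c (chromosome 4, 109660876 to 109666756, minus strand), had 19, 15 and 14 bins in states 1 or 2 within 2 kb of its TSS. Its state 1 bins numbered 8 in every group, so the difference lay in state 2, with 11, 7 and 6 bins. The second start of Cdkn2c, 1384 bp downstream, was in state 2 in all groups. Cdkn2d, which encodes p19INK4d (chromosome 9, 21288463 to 21291209, minus strand), had 13, 4 and 5 bins in states 1 or 2. Upstream of its TSS state 4 came up to the TSS bin in the 12-month groups, with 10 bins in each against 4 in SD 3m. The unbroken stretch of states 1 or 2 over the Cdkn2d TSS measured 5.2 kb in SD 3m, 0.8 kb in SD 12m and 1.0 kb in CR 12m. Past a run of state 3, states 1 or 2 returned downstream at 12 months. They held bins 13 to 22 after the TSS bin in SD 12m and bins 17 to 21 in CR 12m.

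Cdkn1b encodes p27Kip1, which holds resting cells out of the cycle (chromosome 6, 134920401 to 134925525, plus strand). All 21 bins around its TSS were in states 1 or 2 in SD 3m and 15 were in SD 12m and in CR 12m. Its stretch of states 1 or 2, the longest of the 8 genes in SD 3m, measured 13.4 kb there, 3.4 kb in SD 12m and 3.2 kb in CR 12m. Within 5 kb in SD 12m, states 1 or 2 also held bins 14 to 19 upstream of the TSS bin and bin 17 downstream. In CR 12m no bin within 5 kb outside the stretch was in these states. All 26 body bins were in states 1 or 2 in SD 3m, whereas 12 were in state 3 in SD 12m and 14 in CR 12m.

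Cdkn1a encodes p21, the inhibitor through which p53 arrests the cycle (chromosome 17, 29090979 to 29100722, plus strand), and its first start lay in enhancer chromatin. Within 2 kb of it 18, 20 and 21 bins were in state 3, and 0 were in states 1 or 2 in any group. The second start, 2790 bp downstream and the one with 19 CpG, was in state 3 too. The nearest stretch of states 1 or 2 began 1, 2 and 6 bins after the bin holding the second start. Its first base was 29093801, 29094001 and 29094801, with the second start at 29093769. It measured 1.6 kb, 1.4 kb and 0.6 kb. In CR 12m this stretch held no state 1 bin, against 3 in SD 3m and 1 in SD 12m. The rest of the body differed more: 7 bins of state 5 and 15 of state 8 in SD 3m stood against 22 bins of state 4 in SD 12m and 18 in CR 12m. Its flanks had 223, 13 and 54 of 500 bins in state 5, and 0, 157 and 97 in state 4. Over the genome state 5 covered 5.40%, 2.70% and 2.39% of the bins and state 4 covered 6.29%, 9.21% and 8.08%. Near the TSS of all genes (within 2 kb), 45.2% of the state 5 bins of 3-month livers bore state 4 at 12 months on standard diet and 35.2% under restriction.

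A p53 response element is a pair of adjacent decamers. An exact match to its consensus (the p53 consensus on both strands, decamers with no spacer) was found within 2 kb of the TSS of 0 of the 8 genes, 1 of 23 listed p53 targets and 23 of all genes (0.0882%). After this was seen, and with the Cdkn1a sequence known to have a single mismatch, the search was repeated with 1 mismatch allowed outside the central bases of each decamer. It then matched 1 of the 8 genes, Cdkn1a, 2 of the 23 targets and 147 of all genes (0.563%) within 2 kb. Over each gene and 5 kb on each side, the looser search also matched Cdkn2b and Mdm2. The Cdkn2b match lay in an intron, 2613 bp past the start, in state 6 in every group. Those of Mdm2 lay 10818 bp and 25008 bp past the start, in state 4 in every group. The Cdkn1a match, with its cores in capitals, begins 51 bp upstream of the first start, and its bin was in state 3 in every group.
Cdkn1a p53 element, chr17:29090928-29090947, plus strand: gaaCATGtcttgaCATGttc

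Trp53 encodes p53 (chromosome 11, 69580359 to 69591873, plus strand). States 1 or 2 held all 21 bins around its TSS at 3 months and 19 and 17 at 12 months, but state 1 alone had the reverse order, with 7, 9 and 12 bins. Wrap53, the neighboring gene, overlaps the bins just upstream. The state 2 label of the TSS bin in SD 3m was a single bin between bins of state 1. In the body 15 bins were in state 8 in SD 3m and 0 in the 12-month groups, while state 4 held 10, 30 and 26 of 59 bins. The upstream flank contained 105 bins of state 6 in SD 3m, over Dnah2 and Efnb3, against 53 in SD 12m and 11 in CR 12m. This order is opposite to the one over both flanks of Cdkn2a together at 50 kb. The upstream flank of Cdkn2a alone, with 92, 66 and 79 bins, also held fewer at 12 months. Of all flank bins of Trp53, 43.2% differed between SD 12m and SD 3m, 50.2% between CR 12m and SD 3m and 31.2% between SD 12m and CR 12m.

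Mdm2 (chromosome 10, 117688875 to 117710758, minus strand) kept state 1 at the TSS, with 18, 13 and 12 bins in states 1 or 2 within 2 kb. Of its body bins, 9.09% differed between SD 12m and SD 3m, the lowest share among the active genes. The share between CR 12m and SD 3m was the same, and 64 of 110 bins were in state 4 in every group. The body is also the longest of the 8, and state 2 held 13, 5 and 5 of its bins. In Cdkn2d, with 15 body bins, state 2 held 14, 5 and 4.

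**Figure D3:**
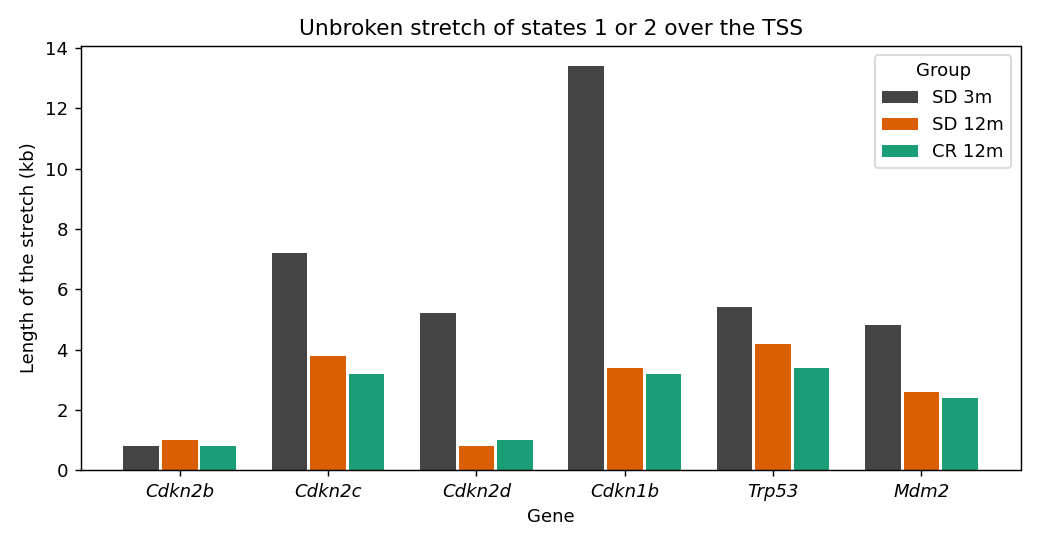
Length in kb (vertical axis) of the unbroken stretch of states 1 or 2 over the first TSS in SD 3m, SD 12m and CR 12m (bars) for the 6 genes that have one. Cdkn1b is longest in SD 3m at 13.4 kb, and Cdkn2b is short in every group at 0.8 kb to 1.0 kb.

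Over the 8 genes the bins in states 1 or 2 within 2 kb of the TSS numbered 96, 71 and 67. The difference was in state 2, with 64, 35 and 32 bins, while state 1 held 32, 36 and 35 and state 3 held 27, 49 and 53. Of the 64 state 2 bins of SD 3m, 24 (37.5%, Wilson 95% interval 26.7% to 49.7%) bore state 3 at 12 months on standard diet and 27 (42.2%, 30.9% to 54.4%) under restriction, intervals that count neighboring bins as if they were independent. Over all genes these shares were 42.1% and 49%. Each of the 5 genes with a state 2 bin in SD 3m had fewer in both 12-month groups, as had 93.7% and 94% of all such genes. Counting states 1 and 2 together, 5 of the 6 genes with such a bin had fewer, all but Cdkn2b, beside 87.9% and 92.2% of all genes. The narrower belt of state 2 was thus nearly as common among all genes as among these.

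**Figure D4:**
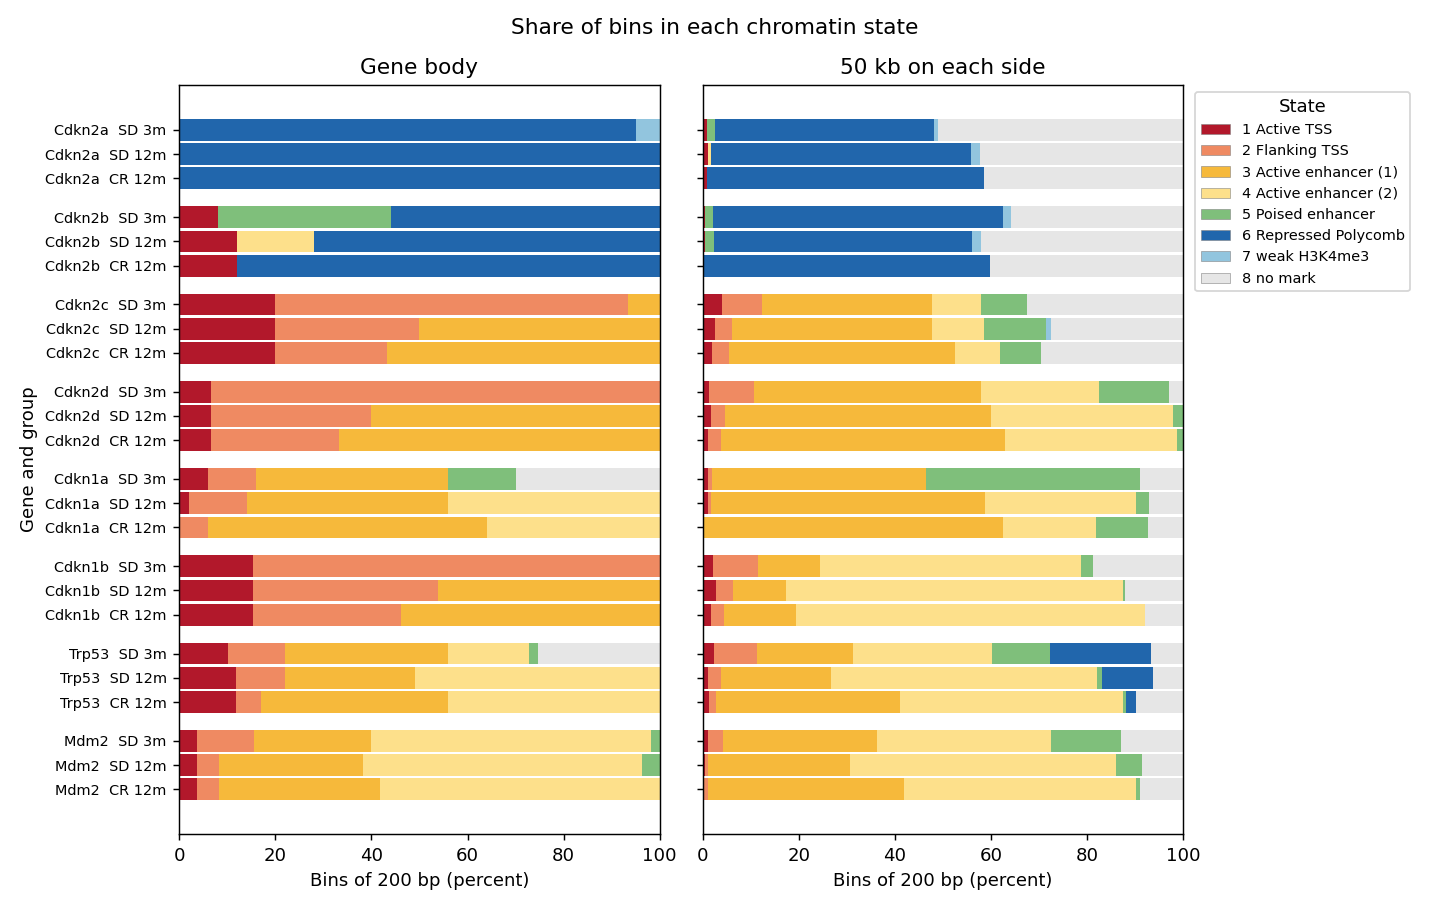
Percent of bins in each chromatin state (horizontal axis) in the gene body (left) and in 50 kb on each side (right) for each gene and group (rows). State 6 fills the Cdkn2a body, the bodies of Cdkn2c, Cdkn2d and Cdkn1b hold fewer state 2 and more state 3 bins at 12 months with as many state 1 bins, and state 5 in the Cdkn1a flanks holds 223 bins in SD 3m against 13 in SD 12m.

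The share of bins that differed was near that of other genes around the TSS and in the flanks. Within 2 kb the median over the 8 genes was 35.7% between SD 12m and SD 3m (33.3% over all genes), 40.5% between CR 12m and SD 3m (33.3%) and 14.3% between SD 12m and CR 12m (19.05%). In the flanks the medians were 26%, 32.5% and 18.5%, against 29.8%, 31% and 20% over all genes, where Cdkn2a and Cdkn2b, as neighbors, share bins. In the gene bodies they were 39.7%, 43% and 13.6%, against 24.99%, 26.3% and 14.9%. The bodies ranged from 15 bins in Cdkn2d to 110 in Mdm2, and the part of body length was not tested. Between SD 12m and CR 12m the Cdkn2a body did not differ in any bin, and Cdkn2c, Cdkn2d, Cdkn1a and Mdm2 each differed in 1 of 21 bins around the TSS.

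**Figure D5:**
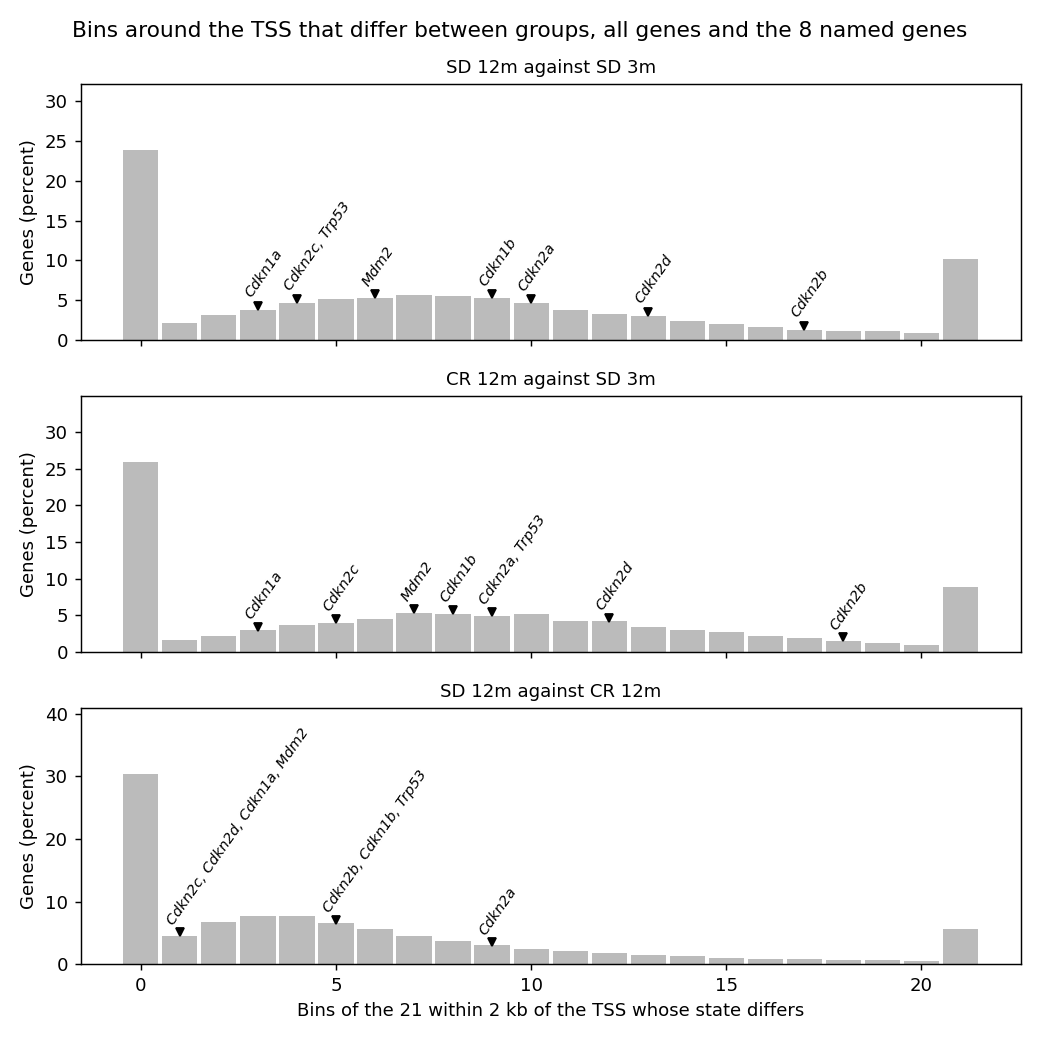
Number of the 21 bins within 2 kb of the TSS whose state differs between 2 groups (horizontal axis) and percent of all 26089 genes with that number (bars), with the 8 genes marked by triangles. Cdkn2b lies to the right in both comparisons with SD 3m, at 17 and 18 bins, and Cdkn1a at 3 bins in each. Of all genes, 10.2% and 8.92% lie at 21 bins in these comparisons, and others lie between Cdkn2b and that end.

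The genes around these inhibitors in the pathway were read from lists of known partners. Of 18 genes (cell cycle kinases, cyclins, RB and E2F families and Cdkn1c), 14, 7 and 6 had the TSS bin in state 1 or 2. Over all genes 10449, 9052 and 8004 of 26089 did, and of the 10449 genes 16.5% were outside states 1 and 2 in SD 12m and 25.9% in CR 12m. TSS bins differed for 10, 11 and 8 of the 18 genes in the same 3 comparisons as above (32.6%, 34.7% and 26.7% of all genes). Ccnd1, the cyclin D1 gene, was in state 1, 5 and 1, and Ccnd2 in state 1, 4 and 4 in SD 3m, SD 12m and CR 12m. Within 2 kb of the TSS, states 1 or 2 held 21, 14 and 11 bins at Ccnd1 and 14, 10 and 7 at Ccnd2. Ccna2, the S phase cyclin A2 gene, was in state 4 in every group. Cdkn1c, the other Cip/Kip gene, named here for its family after its values were seen, was in state 8 in SD 3m and in state 4 in both 12-month groups.

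Of 23 p53 target genes 18, 16 and 15 had the TSS bin in state 1 or 2, and 6 differed between SD 12m and SD 3m, 9 between CR 12m and SD 3m and 7 between SD 12m and CR 12m, beside 32.6%, 34.7% and 26.7% of all genes. Aen, a nuclease gene, and Apaf1, the apoptosome gene, were in state 1 in all groups, and Bax, a gene of the mitochondrial death pathway, was in state 1, 1 and 3. Of 12 genes that regulate p53 or share its family, 8 were in state 1 or 2 in each group, among them the kinase genes Atm, Atr and Chek1, all in state 1 throughout. Of 12 regulators of the Cdkn2a locus 10, 8 and 8 were in state 1 or 2. Bmi1, a Polycomb gene, was in state 7, 4 and 4, Cbx7, another, in state 1, 3 and 1, and Dmtf1, an activator of Arf, in state 1 throughout. A TSS bin is a single bin: within 2 kb, states 1 or 2 held 14, 5 and 3 bins at Bmi1. They held 13, 2 and 4 bins at Cbx7 and 17, 11 and 11 at Dmtf1. No listed gene had its TSS bin in states 1 or 2 in one group and in states 6, 7 or 8 in another. The share of all genes that did was not counted, so this is not read as a trait of the lists. Of the state 2 bins of SD 3m within 2 kb of any TSS, few were in states 6, 7 and 8 at 12 months. The shares were 0.0206%, 0.0242% and 0.0413% in SD 12m and 0.0682%, 0.0206% and 0.157% in CR 12m.

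The genes most like each of the 8 were ranked by how many of 63 labels (21 bins in 3 groups) were equal, with ties listed in alphabetical order. Cdkn2a shared 48 with Frzb and 47 with Gm32498 and Lmo7, and Cdkn2b no more than 41, with Eif3f, followed by Galnt18 and Tusc3 with 40. Cdkn1a shared 61 with Ifitm6 and 60 with 11 genes, of which 1700001D01Rik and 4833427F10Rik come first by name. Cdkn2c shared 59 with Stt3b and Wac and 58 with 3 genes, the first by name Elf1, and Mdm2 shared 59 with Armc8, Lpin2 and Wtap. Cdkn2d shared 55 with Arpc1a, 54 with Clasrp and 53 with Cep85, Cdkn1b shared 53 with Arf4 and Hipk2 and 51 with 7 genes, the first by name Canx, and Trp53 shared 54 with Ggnbp2 and 53 with 3 genes, among them Ggnbp2os and Gm26885. The pattern around Cdkn2b thus had the least similar nearest gene of the 8.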

How the data were processed

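H3K4me3, H3K27me3, H3K27ac and H3K4me1 were profiled by ChIP-seq in 108 libraries from 31 livers. The authors aligned reads to mm10 with bwa aln (0.6.2-r126), removed unmapped, duplicate and off-chromosome reads with samtools (0.1.18), merged the reads of each group, trained an 8-state ChromHMM model and deposited a state label for each of 13168874 bins of 200 bp per group. SD 3m merged 30 libraries, SD 12m 29 and CR 12m 29. SD 6m was not analysed here. Labels hold no read depth, which is unknown, and merging, binarization and smoothing could not be repeated.

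From the deposited labels, states were read with Python 3.11.15, numpy 2.4.6 and pandas 2.3.3, with no filter, at the TSS of the curated RefSeq transcript of longest span (GRCm38.p6, the mm10 assembly), in 21 bins centred on it, in the gene body and in 50 kb on each side. The functions were tested on simulated maps. No test was run. The genes, lists and measures were chosen with earlier results of these data known. Genes named were the 8, listed genes crossing between states 1 or 2 and 6 to 8, the first 3 of each list in alphabetical order, and the 3 most alike genes, leaving out those within 10 kb. The alternatives were other TSS, windows, flanks and gene sets, 5 merged classes, the most frequent state of 5 bins and bridged single bins. The p53 search with 1 mismatch was added after seeing the data.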

Additional observations from a re-analysis of the deposited data

How the results depend on the processing

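No paired analysis was possible because each group is a single map of merged libraries, for the same reason that no replicate could be left out. Of 64 alternative values, 37 stayed within the main value's Wilson 95% limits, or within 1.5 times a count, and 27 moved. For shares of bins, and for medians of such shares over the genes, these limits treat neighboring bins as if they were independent. A median over genes has no such limit, so the tally only sorts the values and does not measure their stability. The count of genes whose TSS bin differed from SD 3m was 1 in both 12-month groups, in place of 2, with 5 classes and with the most frequent state of 5 bins. The median share of bins within 2 kb that differed was 26.2%, 28.6% and 4.76% with 5 classes for SD 12m against SD 3m, CR 12m against SD 3m and SD 12m against CR 12m, and 27.3% within 1 kb for SD 12m against SD 3m. Bins in states 1 or 2 in SD 3m numbered 56 within 1 kb and 168 within 5 kb, since these windows hold fewer or more bins. State 6 held 100% of the Cdkn2a body in SD 3m without the bins within 2 kb of the TSS. In the Cdkn2a flanks it held 91.5%, 83% and 89.5% at 20 kb and 30.7%, 48.8% and 35% at 100 kb in SD 3m, SD 12m and CR 12m, so the order of the groups is not the same at each width, and the cause was not tested. Flank bins that differed were 34%, 36.5% and 23.4% at 100 kb and 27.6%, 34.8% and 16.2% outside other genes in the order of comparisons above, and 16.5% at 20 kb for SD 12m against CR 12m. Of protein-coding TSS bins, 35.5% differed between CR 12m and SD 3m and 27.2% between SD 12m and CR 12m. The p53 search, chosen in its looser form after seeing the data, matched 0 genes exactly and 1 with a mismatch. Bridging single bins left the state 6 stretches over the Cdkn2a TSS at 61.2 kb and 78.2 kb.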
